A study of Mus musculus with 2 samples.

Results

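The SoxB and SoxC genes encode 8 transcription factors of the Sox family. They were taken as the rows of the gene table and of the isoform table whose gene name is Sox1, Sox2, Sox3, Sox14, Sox21, Sox4, Sox11 or Sox12. All 8 were found, as 8 of 43437 gene rows and 10 of 103615 isoform rows. The study sequenced RNA of untreated wild-type mouse fetuses of the outbred ICR stock at E12.5, with 1 library of whole body and 1 of telencephalon, the front part of the embryonic brain. Sex and number of the fetuses behind a library are not stated in the labels, nor is it stated whether the whole body kept its head. The values are FPKM, which scale fragments to the transcript's length and to all mapped fragments of a library. This adjusts for length and depth, but not for differences in RNA makeup between the libraries. Adding up all genes gave unequal totals, 502131 FPKM (whole body) and 447888 FPKM (telencephalon). Ratios between the libraries therefore depend in part on the scaling chosen. Since each group is 1 library, no difference could be set against replicate spread and none has a p-value. In such bulk samples fewer cells of a type and less RNA per cell cannot be told apart.

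Sox proteins bind DNA through an HMG box and usually act together with a partner factor on the same enhancer. The SoxB1 genes Sox1, Sox2 and Sox3 keep neural progenitors in an undifferentiated, dividing state. The SoxB2 genes Sox14 and Sox21 encode repressors that oppose SoxB1 activity, Sox21 in progenitors that begin to differentiate and Sox14 mainly in defined neuron groups of the diencephalon, midbrain and spinal cord. The SoxC genes Sox4, Sox11 and Sox12 are switched on as cells commit to the neuronal fate and activate pan-neuronal genes. Outside the nervous system Sox4 and Sox11 also act in mesenchyme, heart outflow tract and other growing organs, and Sox2 in foregut, lens and sensory epithelia.

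In telencephalon 6 of the 8 genes exceeded their whole-body level by 2-fold or more, none was lower by that much, and 2, Sox12 and Sox14, lay within 2-fold. The 2-fold mark was set on the log2 ratio of FPKM + 1, telencephalon over whole body, and all 8 genes passed the filter of 1 FPKM or more in either library, Sox14 through whole body alone. Among all 14987 genes that passed this filter, the share past the mark was 9.39% on the higher side and 21.2% on the lower side. The median log2 ratio was 2.36 over the 8 genes and -0.16 over all measured genes. The largest log2 ratio, that of Sox1, ranked 13 among 13706 measured protein-coding genes. Sox2 ranked 38, Sox3 88, Sox21 113, Sox11 126, Sox4 468, Sox12 1661 and Sox14 10336 in the same order.

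**Figure D1:**
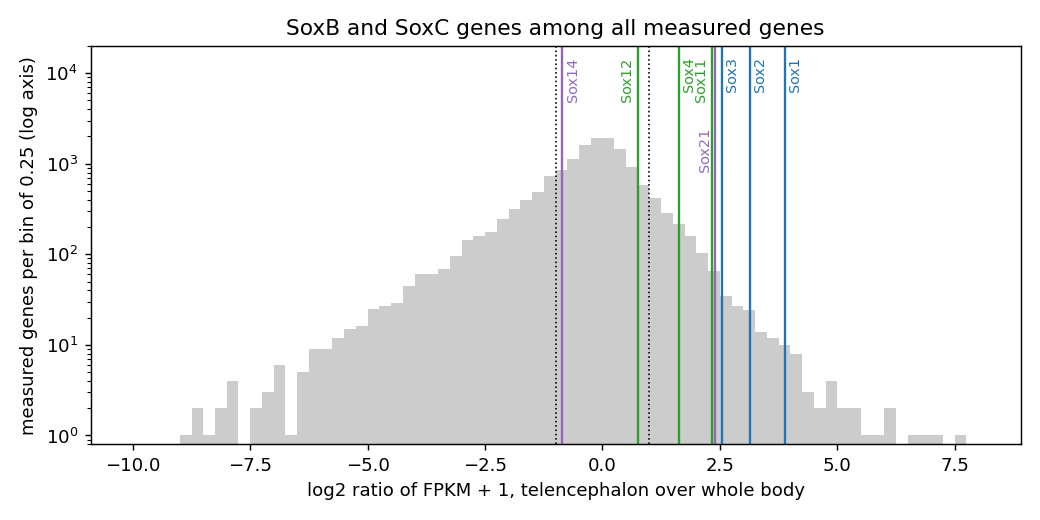
Histogram of the log2 ratio of FPKM + 1 (telencephalon over whole body) for all 14987 measured genes, with a log axis for the number of genes, a coloured line for each SoxB1 (blue), SoxB2 (purple) and SoxC (green) gene, and dotted lines at 2-fold. The lines of 6 genes lie to the right of the upper mark, from Sox4 at 1.62 to Sox1 at 3.88, while Sox12 (0.75) and Sox14 (-0.85) lie between the marks.

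The depth behind these values was read from the steps of low FPKM values. It was estimated at 29400000 fragments for whole body and 22700000 for telencephalon. A level of 3 fragments on a transcript of 2000 bases corresponds to 0.0609 and 0.0792 FPKM. Paired values are given with whole body first. The intervals beside them are exact 95% intervals on the estimated fragments. They cover counting error within these libraries and nothing else, since the libraries carry no molecular identifiers.

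The SoxB1 genes were all higher in telencephalon, by 7 to 22 times. Sox2, which also maintains pluripotent cells before the nervous system forms (ENSMUSG00000074637, GRCm38 chromosome 3, 34650405 to 34652461, plus strand), measured 7.37 FPKM in whole body against 72.3 in telencephalon. It was the most abundant SoxB1 gene in both libraries. Its ratio of FPKM was 9.81 (interval 8.75 to 10.9, from about 375 and 2831 fragments) and its log2 ratio 3.13. Sox1, whose expression begins with the neural plate and is the most restricted to neural tissue of the SoxB1 genes (ENSMUSG00000096014, chromosome 8, 12395295 to 12400126, plus strand), measured 1.83 FPKM in whole body against 40.6 in telencephalon. It was the lowest of the 8 genes in whole body and ranked 5 in telencephalon. Its ratio of 22.2 (interval 19.5 to 25.3, about 242 and 4156 fragments) was the largest of the 8, and its interval did not overlap that of any other member. Sox3, an X-linked gene of neural progenitors and of the hypothalamus and pituitary (ENSMUSG00000045179, chromosome X, 60891366 to 60893430, minus strand), stood at 3.11 and 22.99 FPKM. Its ratio was 7.40 (interval 6.20 to 8.75, about 159 and 905 fragments), with a log2 ratio of 2.55.

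Sox3 is the only member on the X chromosome, and sex-linked transcripts differed between the libraries. Xist, the RNA of the inactive X of females, measured 0.0703 FPKM in whole body against 55.1 in telencephalon. The Y-linked genes examined were lower in telencephalon: Ddx3y stood at 10.9 and 1.96 FPKM, Eif2s3y at 19.2 and 4.97, Kdm5d at 10.4 and 4.13, and Uty at 5.10 and 1.81. A difference in sex makeup cannot be told apart from tissue in any comparison of these libraries. The 475 measured coding genes on the X chromosome had a median log2 ratio of -0.05, and the 13217 on autosomes -0.17. The part of sex makeup in the value of Sox3 or of the other members was not tested.

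The balance within SoxB1 differed between the libraries. Summed over the 3 genes, SoxB1 measured 12.3 FPKM in whole body against 136 in telencephalon, an 11.0-fold difference. Sox2 made up 59.9% of the sum in whole body and 53.2% in telencephalon. Sox1 made up 14.9% and 29.9%, and Sox3 25.3% and 16.9%. The order of the lesser members was thus reversed: Sox3 was 1.70 times the level of Sox1 in whole body, and Sox1 was 1.77 times the level of Sox3 in telencephalon. The counting intervals of Sox1 and Sox3 overlapped in neither library (1.60 to 2.07 and 2.64 to 3.63 FPKM in whole body, 39.4 to 41.9 and 21.5 to 24.5 in telencephalon).

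The SoxB2 genes went in opposite directions. Sox21 (ENSMUSG00000061517, chromosome 14, 118233232 to 118237030, minus strand) measured 2.17 FPKM in whole body against 15.7 in telencephalon. Its ratio of 7.23 (interval 6.24 to 8.35, about 222 and 1239 fragments) was close to that of Sox3, with overlapping intervals. Sox14 (ENSMUSG00000053747, chromosome 9, 99874106 to 99876170, minus strand) measured 1.95 FPKM in whole body against 0.635 in telencephalon, and was the only member below its whole-body level. The ratio of its FPKM, whole body over telencephalon, was 3.08 (interval 1.98 to 5.01), on about 100 and 25 fragments. Its log2 ratio was -0.85 with 1 FPKM added, within the 2-fold mark, and -1.48 with 0.1 FPKM added, past it. Both SoxB2 genes were near 2 FPKM in whole body, with Sox21 at 52.7% and Sox14 at 47.3% of their sum, and in telencephalon Sox21 held 96.1%.

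Most genes listed as brainstem and spinal cord markers were also lower in telencephalon. In whole-body RNA their levels cannot be assigned to those regions, since other organs contribute as well. Of 13 measured brainstem and spinal cord markers 11 were at least 2-fold lower and 1 higher, with a median log2 ratio of -1.64 and a summed level of 103 FPKM in whole body and 53.2 in telencephalon. Without Isl1 the sums of the other 12 were 91.3 and 5.67 FPKM. With a pseudocount of 5 FPKM in place of 1, 4 of the 13 were at least 2-fold lower. Lhx3, a homeobox gene of motor neurons and V2 interneurons, measured 1.17 FPKM in whole body and was listed at 0 in telencephalon. The Hox gene Hoxb8 stood at 46.0 and 0.673 FPKM, and Lmx1b, a gene of hindbrain serotonin and dorsal spinal neurons, at 8.14 and 0.00986, the latter from about 1 fragment. The exception was Isl1, which is also expressed in the striatal primordium of the telencephalon (11.6 FPKM in whole body and 47.5 in telencephalon). En2, within 2-fold on this scale, stood at 1.04 and 0.0686 FPKM. The part of these regions in the value of Sox14 was not tested.

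The SoxC genes were the most abundant of the 8 in whole body, and graded in their difference. Sox11, an activator of pan-neuronal genes (ENSMUSG00000063632, chromosome 12, 27334264 to 27342574, minus strand), measured 34.4 FPKM in whole body against 176 in telencephalon. Its ratio was 5.13 (interval 4.999 to 5.25, about 8063 and 31990 fragments) and its log2 ratio 2.33. Sox4, which acts redundantly with Sox11 in neurons and mesenchyme (ENSMUSG00000076431, chromosome 13, 28948919 to 28953713, minus strand), stood at 51.7 and 161 FPKM. Its ratio was 3.12 (interval 3.02 to 3.20, about 6788 and 16343 fragments) and its log2 ratio 1.62. Sox12, the weakest activator of the group and dispensable in mice (ENSMUSG00000051817, chromosome 2, 152393611 to 152398063, minus strand), stood at 41.2 and 69.7 FPKM. Its ratio of 1.69 (interval 1.63 to 1.75, about 4994 and 6533 fragments) and log2 ratio of 0.75 left it within 2-fold. The intervals of the 3 ratios did not overlap.

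Sox11 was the lowest SoxC gene in whole body and the highest in telencephalon. It made up 27.0% of the summed SoxC level in whole body and 43.3% in telencephalon, while Sox12 made up 32.4% and 17.1% and Sox4 40.6% and 39.6%. The sum of the 3 genes was 127 FPKM in whole body and 407 in telencephalon, a 3.20-fold difference against the 11.0-fold difference of SoxB1. SoxC therefore stood at 10.3 times the level of SoxB1 in whole body and 2.996 times in telencephalon.

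**Figure D2:**
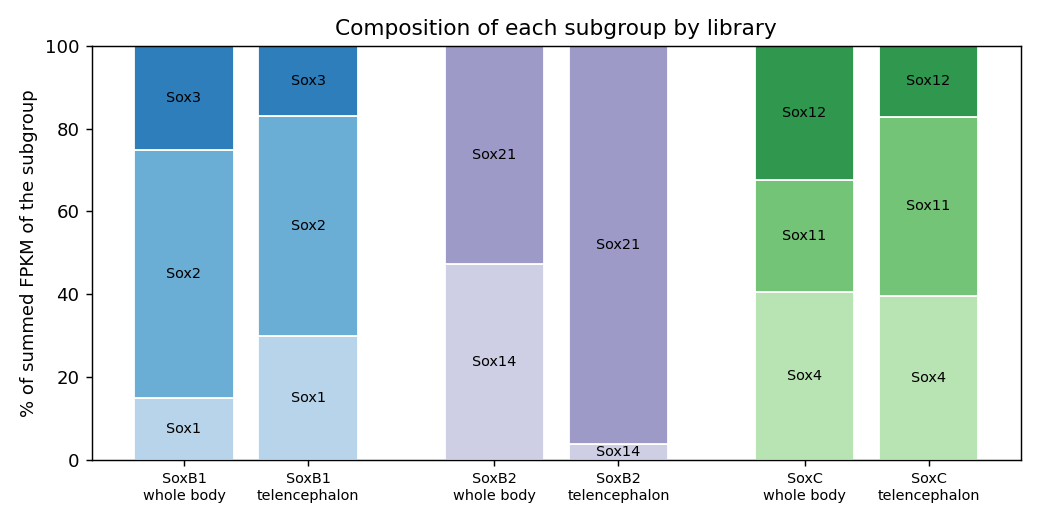
Share of each gene in the summed FPKM of its subgroup, in percent, with a bar for each subgroup and library. Sox1 takes 14.9% of SoxB1 in whole body and 29.9% in telencephalon, Sox14 takes 47.3% and 3.88% of SoxB2, and Sox11 takes 27.0% and 43.3% of SoxC.

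Ordered by level in whole body, the genes ran Sox4, Sox12, Sox11, Sox2, Sox3, Sox21, Sox14 and Sox1. The last 3 of these, at 2.17, 1.95 and 1.83 FPKM, did not differ beyond their counting intervals. In telencephalon the order was Sox11, Sox4, Sox2, Sox12, Sox1, Sox3, Sox21 and Sox14. There Sox2 (69.6 to 74.997 FPKM) and Sox12 (68.1 to 71.5) overlapped, and no other neighbours in that order did. Sox11 and Sox4 exceeded 98.1% and 97.8% of the measured coding genes in telencephalon, and 81.7% and 89.4% in whole body. Sox1 exceeded 9.61% of the coding genes in whole body and 85.1% in telencephalon.

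**Figure D3:**
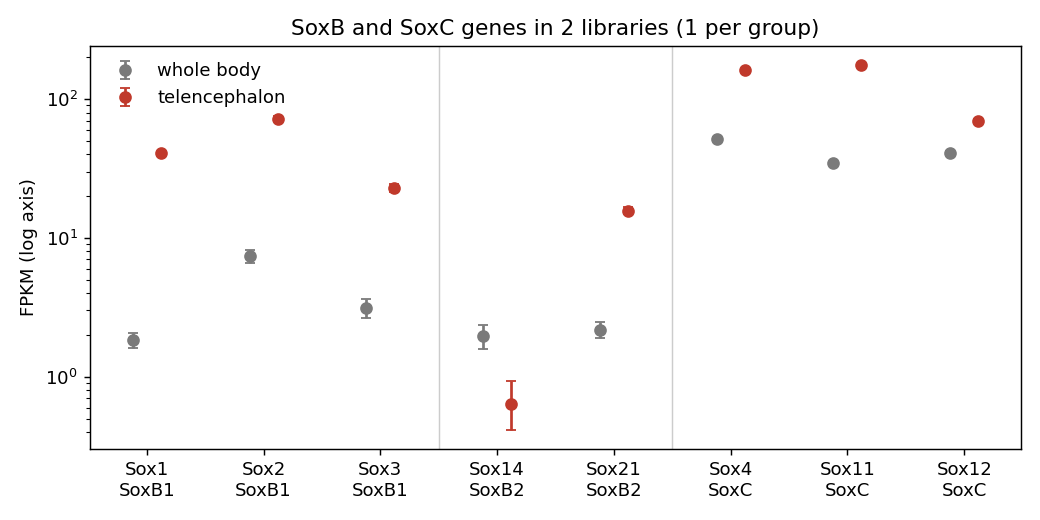
FPKM on a log axis for each SoxB and SoxC gene in the whole-body (grey) and telencephalon (red) library, with bars for the exact 95% counting interval, which is narrower than the symbol for the abundant genes. The telencephalon point is the higher for 7 genes, and for Sox14 it is the lower (0.635 against 1.95 FPKM).

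Each of the 8 genes is built from 1 exon in its leading isoform. This holds for 2.85% of the 13628 measured coding genes with an annotated leading isoform. The leading transcripts are 2057 to 8311 bases long, and the share of them that codes for protein ranges from 14.3% in Sox11 to 65.5% in Sox3. The encoded proteins have 240 (Sox14) to 450 (Sox3) residues, with Sox1 at 391, Sox2 at 319 and Sox11 at 395. Only Sox12 and Sox14 have another isoform row, and it held almost none of the signal: the spliced Sox12 isoform made up 0.310% in whole body and 0.0806% in telencephalon, and that of Sox14 less than 1 fragment in either library.

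Strand is not marked by the library kit, so a read cannot be assigned between a gene and an antisense gene that overlaps it. In Sox4, 54.1% of the 50-base stretches of the transcript also occur, reversed, in the non-coding gene Gm26735, which lies on the opposite strand. Virtually the whole signal there was assigned to Sox4, since Gm26735 received less than 1 fragment in both libraries. In Sox21, 17.8% of the stretches also occur in the antisense gene Gm4675, which measured 0.783 FPKM in whole body against 4.002 in telencephalon, a ratio of 5.11 (about 46 and 170 fragments). In Sox1, 0.774% of the stretches occur in an annotated microRNA gene inside it, listed at 0 in both libraries, and the other 5 members share no stretch with any other annotated gene, each other included.

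A non-coding RNA at Sox1 and one row inside the RNA that encloses Sox2 were also higher in telencephalon. Sox1ot (named Gm5607 in the table), whose span on chromosome 8 from 12385771 to 12436768 encloses Sox1 on the same strand, measured 0.438 FPKM in whole body against 12.7 in telencephalon. This is a ratio of 28.9, on about 61 and 1388 fragments. No 50-base stretch of Sox1 occurs in its annotated transcripts. Sox2ot, the RNA that encloses Sox2, is not analysed here under its own name. A row of 272 bases inside it, ENSMUSG00000084530 on chromosome 3 from 34638368 to 34638639, stood at 19.1 and 264 FPKM, a ratio of 13.8. It is shorter than the bases subtracted from transcript lengths, so its level is inflated by the length correction. At Sox3 the antisense row Gm14662 stood at 0.0827 FPKM in whole body, from about 1 fragment, and was listed at 0 in telencephalon. Around Sox12, the coding neighbours Nrsn2 (3.37 and 8.60 FPKM) and Zcchc3 (21.1 and 12.9) had log2 ratios of 1.14 and -0.67.

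Promoter sequences were taken from RefSeq (GRCm38.p6) for 7 of the 8 genes. They are the 250 bases before the RefSeq start, and those of 5 genes are shown: Sox2, the SoxB2 genes that went in opposite directions, and the SoxC genes Sox4 and Sox12, whose differences were the smallest among the genes above their whole-body level. Capitals mark matches on either strand to ACAAAG, a Sox core motif, to the octamer ATGCAAAT of POU factors, and to CCAAT, the site of NF-Y.
Sox2 (chr3:34649745-34649994, plus strand): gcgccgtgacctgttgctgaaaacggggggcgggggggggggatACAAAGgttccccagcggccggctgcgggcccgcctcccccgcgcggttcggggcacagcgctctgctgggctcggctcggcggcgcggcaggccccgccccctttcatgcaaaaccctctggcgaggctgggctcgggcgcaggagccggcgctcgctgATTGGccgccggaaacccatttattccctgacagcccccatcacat
Sox21 (chr14:118237031-118237280, minus strand): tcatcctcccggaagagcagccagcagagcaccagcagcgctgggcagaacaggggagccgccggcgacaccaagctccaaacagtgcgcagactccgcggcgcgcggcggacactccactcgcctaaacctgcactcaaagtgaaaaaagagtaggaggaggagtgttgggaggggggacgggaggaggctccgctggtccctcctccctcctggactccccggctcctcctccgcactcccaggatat
Sox14 (chr9:99876171-99876420, minus strand): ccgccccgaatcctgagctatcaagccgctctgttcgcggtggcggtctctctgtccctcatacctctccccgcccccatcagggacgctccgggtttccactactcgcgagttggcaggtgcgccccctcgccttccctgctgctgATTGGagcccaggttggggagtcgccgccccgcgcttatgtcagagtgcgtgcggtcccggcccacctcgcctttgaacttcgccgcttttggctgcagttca
Sox4 (chr13:28953700-28953949, minus strand): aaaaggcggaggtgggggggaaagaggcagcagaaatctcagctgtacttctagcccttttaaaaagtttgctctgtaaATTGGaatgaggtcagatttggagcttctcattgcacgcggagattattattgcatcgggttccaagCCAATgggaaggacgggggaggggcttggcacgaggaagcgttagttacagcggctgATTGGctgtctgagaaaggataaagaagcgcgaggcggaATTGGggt
Sox12 (chr2:152398047-152398296, minus strand): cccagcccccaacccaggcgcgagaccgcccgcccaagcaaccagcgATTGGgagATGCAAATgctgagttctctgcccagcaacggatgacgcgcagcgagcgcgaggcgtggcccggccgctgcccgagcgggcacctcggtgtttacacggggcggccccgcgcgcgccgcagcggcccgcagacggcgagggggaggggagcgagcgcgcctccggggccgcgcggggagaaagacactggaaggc

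CCAAT was found in 6 of the 7 promoters, all but that of Sox21, and in 34.5% of 27025 promoters of the same length. Sox4 has 4 matches. ACAAAG was found in Sox2 only, 206 to 201 bases before the start, against 16.5% of all promoters, and ATGCAAAT in Sox12 only, against 1.61%. GGGCGG, the GC box, was found in 5 (32.9% of all promoters), while ACAATG (11.0%) and TATAAA (13.0%) were in none. Matches to different motifs did not overlap, while GGGCGG matches of Sox12 overlap each other. The GC content ran from 50.8% in Sox4 to 74.4% in Sox12, with a median of 52.0% over all promoters, and of the 7 only Sox4 was under that median. The RefSeq start of Sox2 lies 410 bases upstream, and that of Sox11 144 bases upstream, of the start annotated by GENCODE, whereas that of Sox1 lies 224 bases downstream. These matches are descriptions of the letters, and binding was not measured.

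Partner factors of SoxB proteins were higher in telencephalon or within 2-fold. The shares over all measured genes, to be set beside this and every other list count, were 9.39% higher and 21.2% lower. Of 9 measured genes on a list of partner and interacting factors, 5 were past 2-fold on the higher side and none on the lower, with a median log2 ratio of 2.07. The 4 class III POU genes, partners of Sox2 on the Nestin enhancer, were among the 5: Pou3f3 measured 4.73 FPKM in whole body against 35.1 in telencephalon, Pou3f4 at 5.12 and 33.0, Pou3f1 at 1.497 and 12.6, and Pou3f2 at 1.84 and 10.9. Pax6, which pairs with Sox2 in lens and neural tissue, stood at 10.4 and 64.0 FPKM. At the other end were Sall4, an early embryonic regulator (2.18 and 1.23 FPKM), and Pou2f1 (13.8 and 18.7).

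Genes described as targets of SoxB1 proteins differed widely in size. Of 10 measured, 8 were past 2-fold on the higher side and 1 on the lower (median log2 ratio 1.63). Nkx2-1, a gene of the medial ganglionic eminence, measured 2.59 FPKM in whole body against 64.2 in telencephalon. Nr2e1, a nuclear receptor of forebrain progenitors, stood at 1.29 and 33.6 FPKM. Egfr, the epidermal growth factor receptor gene, was the lower one (9.29 and 0.111 FPKM, about 2165 and 25 fragments). Shh was within 2-fold on this scale (1.02 and 2.61 FPKM). The retinal gene Rax was under 1 FPKM in both libraries and listed at 0 in telencephalon.

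Of 7 measured genes described as SoxC targets 5 were past 2-fold on the higher side in telencephalon and none on the lower (median log2 ratio 1.92). With a pseudocount of 5 FPKM the number on the higher side was 3. Tubb3, also on that list, had no row under that name and was not counted. Eomes, a gene of intermediate progenitors, measured 1.86 FPKM in whole body against 24.8 in telencephalon, and Map2, a microtubule protein of neurons, at 56.6 and 313. Tead2, an effector of Hippo signalling, stood at 77.5 and 70.7 FPKM, and the Polycomb gene Ezh2 at 43.7 and 70.8. Both were within 2-fold. Of 8 proneural genes and antagonists 6 were higher and 1 lower (median 1.95). Neurod2, a factor of cortical neurons, stood at 5.205 and 43.5 FPKM. Rest, a repressor of neuronal genes, was the lower one (11.6 and 3.85 FPKM), and Gmnn, which delays neuronal differentiation, stood at 22.8 and 21.4.

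**Figure D4:**
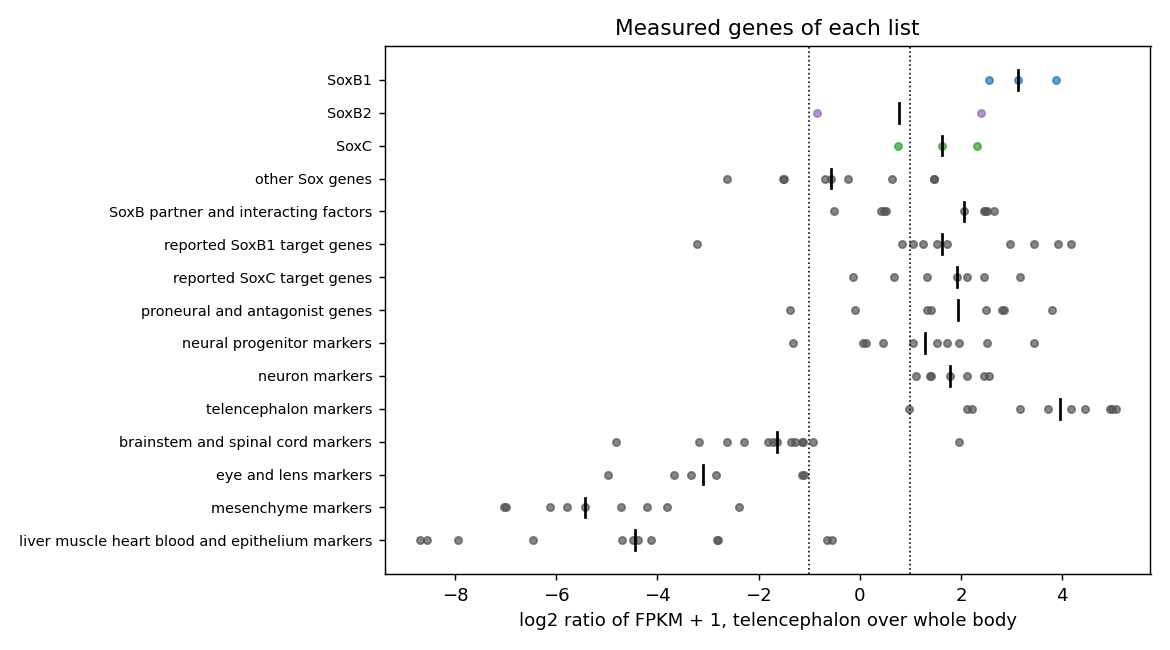
Log2 ratio of FPKM + 1 (telencephalon over whole body) of each measured gene, as a point, in the 3 Sox subgroups and in 12 other gene lists, with a black bar at the median and dotted lines at 2-fold. The SoxB1 genes lie between 2.55 and 3.88, within the span of the telencephalon markers (0.97 to 5.06), while all mesenchyme and eye markers lie to the left of the lower mark.

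The 2 tissues differ in cell makeup, and most markers of several neural cell types were higher in telencephalon, as were most SoxB and SoxC genes. The lists share genes, so their counts are not independent. Hes5 is both a progenitor marker and a SoxB1 target here, Map2 both a neuron marker and a SoxC target. Nkx2-1 and Eomes are telencephalon markers and targets, and Pax6 is a partner factor and a progenitor marker. Of 10 neural progenitor markers 6 were past 2-fold on the higher side in telencephalon and 1 on the lower (median log2 ratio 1.29, summed level 1106 FPKM in whole body and 1664 in telencephalon). They ranged from Hes1 (18.5 and 6.79 FPKM) and Slc1a3 (14.5 and 15.2) to Hes5, a Notch target (7.34 and 89.5). Vim, within 2-fold at 884 and 958 FPKM, made up most of both sums. All 7 neuron markers that had a row were higher (median 1.77, 322 and 1145 FPKM), from Gap43 (49.95 and 109) and Stmn2 (61.1 and 161) to Elavl3 (21.8 and 133). Of 10 telencephalon markers 9 were past 2-fold on the higher side and none on the lower (median 3.96, 50.7 and 974 FPKM). Emx2, with a log2 ratio of 0.97, was within 2-fold with 1 FPKM added. Without that addition, ratios of FPKM ran from 2.46 for Emx2 to 41.7 for Gsx2. Dlx2, a gene of the ventral telencephalon, was at 5.40 and 212 FPKM, so the labelled tissue carries defining markers. The ratio of Sox1 lay inside the range of these markers, below that of Dlx2 (39.3).

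Most markers of tissues outside the nervous system were lower in the telencephalon library, with the globin genes as an exception. All 9 mesenchyme markers were at least 2-fold lower (median log2 ratio -5.43, summed level 1727 FPKM in whole body and 17.5 in telencephalon), with Col1a2 at 470 and 2.57 FPKM and Twist1 at 34.4 and 1.51. All 6 measured eye and lens markers were lower as well (71.3 and 1.299 FPKM summed over the 6), with Cryaa at 33.7 and 0.103 and Pitx3 listed at 0 in telencephalon. Of 12 markers of liver, muscle, heart, blood and epithelium 10 were lower (median -4.44, summed level 6343 FPKM in whole body and 2595 in telencephalon). Krt14 and Myl7 were listed at 0 in telencephalon, and the embryonic globin genes Hbb-y (3360 and 2153 FPKM) and Hba-x (643 and 438) were within 2-fold. How much of each Sox difference follows cell makeup was not tested.

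The remaining Sox genes showed no common direction. Of 9 measured outside SoxB and SoxC 2 were at least 2-fold higher, 3 lower and 4 within 2-fold (median log2 ratio -0.57), and the summed levels of the 9 were 126 and 127 FPKM. The higher ones were Sox8 (7.40 FPKM in whole body and 22.4 in telencephalon) and Sox5, a SoxD gene of deep-layer cortical neurons (12.54 and 36.5). The lower ones were Sox10, the neural crest and glial factor (10.1 and 0.813), and the endothelial genes Sox18 (32.6 and 10.9) and Sox7 (6.26 and 1.54). Sox6 (15.1 and 24.0), Sox9 (25.6 and 21.5), Sox13 (11.3 and 6.66) and Sox17 (4.62 and 2.79) lay within 2-fold. Sox15, Sox30 and Sry were under 1 FPKM in both libraries.

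Measured over 2 libraries only, the likeness of other genes to a member is a description of position and no more. By distance in log2(FPKM + 1), the coding genes nearest to Sox1 were Gad2 (2.24 FPKM in whole body and 38.4 in telencephalon) and Cck (1.41 and 39.0), at distances of 0.21 and 0.24. Nearest to Sox2 were Ttc9b (7.31 and 75.5) and Zswim5 (7.26 and 67.0), and nearest to Sox11 were Nell2 (34.6 and 174) and Celf2 (33.9 and 161). Within a distance of 0.5 there were 4 coding genes for Sox1, 9 for Sox2 and 17 for Sox11, against 333 for Sox12 and 505 for Sox14.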

How the data were processed

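RNA-seq of 1 whole-body and 1 telencephalon library was used. The authors deposited FPKM per gene and per isoform, made with TopHat, Cufflinks and Cuffdiff on GRCm38, per the submitters' processing notes; tool versions and the annotation release are not given in the sources used here. The library kit (TruSeq RNA v2) enriches polyadenylated RNA without marking strand. FPKM are not counts, so no count model was run.

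Log2 ratios used a pseudocount of 1 FPKM, and genes that reached 1 FPKM in a library were counted as measured. Where a symbol has several rows, that of the larger sum was taken. Tubb3 (SoxC targets and neuron markers) and Acta1 (markers of liver, muscle, heart, blood and epithelium) had no row under those names. Of 43437 genes 42276 matched GENCODE M21 (GRCm38), which gave coordinates and lengths. Fragments were estimated by fitting the FPKM of 1 fragment to transcript length in alternate genes with 1 isoform (323 and 380 at 1 fragment). The fit subtracted 322 and 335 bases from each length. In the held-out genes of 2000 bases or more, 93.0% of 755 and 89.7% of 848 values up to 20 fragments came out whole within 0.1, against 20% if the values fell evenly. Ratio intervals are exact (Clopper-Pearson) 95% intervals scaled by a relative depth of 1.29, and level intervals exact Poisson ones. The counting and the depth fit were tested on simulated data.

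The 8 members and the 12 other gene lists were chosen with earlier results of these data known. The rule for named genes took all members, all measured other Sox genes, the 2 largest and 2 smallest log2 ratios of each list, genes within 20000 bases of a member with 1 FPKM or more, and the 2 nearest coding genes of each member, of which those of Sox1, Sox2 and Sox11 are given. Other genes named (Pou3f1, Pou3f2, Pou3f4, Rax, Sox15, Sox30, Sry, Lhx3, Pitx3, Krt14, Myl7, Vim, Xist, Ddx3y, Eif2s3y, Kdm5d, Uty, Gsx2, Gm26735, Gm4675, Gm14662) were chosen after their values were seen. Part of the genes taken by this rule is not reported here. Python 3.11.15 with pandas 2.3.3, NumPy 2.4.6 and SciPy 1.17.1 was used.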

Additional observations from a re-analysis of the deposited data

How the results depend on the processing

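In 7 alternatives (a pseudocount of 0.1 or 5 FPKM, a common upper quartile, TPM, a median log2 ratio of 0 over measured genes, isoforms of 300 bases or more only, and no filter on low values) the number of members at least 2-fold higher was 6. The number at least 2-fold lower was 0 except that it was 1, Sox14, with a pseudocount of 0.1 FPKM and in TPM. The log2 ratio of Sox14 ran from -1.48 to -0.30, that of Sox12 from 0.69 to 0.92, always under 2-fold, and that of Sox1 from 2.74 to 4.40. No member changed sign. Over all measured genes the median log2 ratio was -0.16 as reported, -0.02 in TPM and -0.09 at a common upper quartile. The counts over all genes, 1408 higher and 3170 lower of 14987 measured (9.39% and 21.2%), became 800 and 1490 of the same genes with a pseudocount of 5 FPKM. In TPM they were 2126 and 3594 of 16791 genes that passed the filter (12.7% and 21.4%). Of 168 counts of the other lists under the alternatives, 163 stayed within 1.5 times. The others were counts of lower brainstem and spinal cord markers (11 to 4), neural progenitor markers (1 to 0) and proneural genes and antagonists (1 to 0) and of higher SoxC targets (5 to 3), all with a pseudocount of 5 FPKM, and of lower SoxB1 targets in TPM (1 to 2). No paired analysis was possible because each group has 1 library. Depth limits Sox14 in telencephalon, which rests on about 25 fragments (0.411 to 0.938 FPKM).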
